A study of Drosophila melanogaster with 3 samples.

Results

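The mitochondrial ribosomal protein genes of Drosophila melanogaster were chosen by gene symbol, as the protein-coding genes whose name starts with mRpL or mRpS followed by a digit. This gave 73 of the 13945 protein-coding genes on the 6 chromosome arms, of which 47 encode large subunit proteins (mRpL) and 26 small subunit proteins (mRpS). The group was taken up with its Schnurri (shn) peaks in these data already known, so the counts of bound genes below are a description. Schnurri binding was mapped by chromatin immunoprecipitation and sequencing (ChIP-seq), with an antibody against GFP, in whole embryos of mixed sex, aged 0 to 24 h. The embryos came from a transgenic line that stably expressed shn fused at its C terminus to GFP, and chromatin was sonicated to fragments of 200 to 800 bp. The 3 samples were biological replicates of 1 group, so there was no contrast between conditions, and the whole embryo mixes every cell type and stage of the first 24 h. The authors' peak lists were used, namely 1 list of reproducible peaks, 1 list for the replicates pooled and 1 list for each replicate, while the authors' control was not analysed here.

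Mitochondrial ribosomes translate the few proteins encoded by the mitochondrial genome, which are core subunits of the respiratory chain and of ATP synthase. Their RNAs are encoded in the mitochondrion, but every protein of both subunits is encoded in the nucleus, translated in the cytoplasm and imported. Schnurri is a large zinc finger protein best known from BMP signalling by the ligand Dpp, in which it joins the Smads Mad and Medea on DNA and represses brinker and other targets.

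Promoters of 10 of these genes, 8 with and 2 without a reproducible peak, are shown because the peak positions and motifs described below refer to them. Each runs from 250 bases before to 29 bases after the first transcribed base of the gene's 5′-most transcription start site (TSS), 280 bases in all. The strand is the gene's own, and the sequence is the Release 6 assembly as held by RefSeq. The reproducible summits at mRpS23, mRpL23 and mRpL11 and the replicate summits at mRpL17 lie outside the bases shown. Capitals mark 2 motifs that read alike on both strands and cannot overlap each other, the E-box CAGCTG and the DNA replication-related element (DRE) TATCGATA. The first 6 carried strong reproducible Schnurri peaks, in order of signal.
mRpS10 (chr3R:15229415-15229694, plus strand): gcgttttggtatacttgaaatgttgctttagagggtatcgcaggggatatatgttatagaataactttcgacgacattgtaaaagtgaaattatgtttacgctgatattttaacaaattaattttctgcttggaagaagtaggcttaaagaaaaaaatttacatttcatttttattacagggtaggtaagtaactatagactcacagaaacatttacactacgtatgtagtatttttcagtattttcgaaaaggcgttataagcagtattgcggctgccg
mRpS23 (chr2L:13835043-13835322, minus strand): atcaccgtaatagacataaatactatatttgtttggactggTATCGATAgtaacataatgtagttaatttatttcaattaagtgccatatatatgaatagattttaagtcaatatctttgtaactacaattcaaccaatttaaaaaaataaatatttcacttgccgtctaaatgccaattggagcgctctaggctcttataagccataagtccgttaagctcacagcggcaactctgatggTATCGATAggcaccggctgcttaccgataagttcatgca
mRpL23 (chr3L:2373675-2373954, minus strand): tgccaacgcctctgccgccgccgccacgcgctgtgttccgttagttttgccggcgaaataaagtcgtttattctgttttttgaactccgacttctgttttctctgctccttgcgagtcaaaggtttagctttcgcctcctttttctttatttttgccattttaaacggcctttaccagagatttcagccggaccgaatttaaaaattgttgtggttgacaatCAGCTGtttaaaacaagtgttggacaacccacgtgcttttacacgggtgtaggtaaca
mRpL47 (chr3R:9515879-9516158, minus strand): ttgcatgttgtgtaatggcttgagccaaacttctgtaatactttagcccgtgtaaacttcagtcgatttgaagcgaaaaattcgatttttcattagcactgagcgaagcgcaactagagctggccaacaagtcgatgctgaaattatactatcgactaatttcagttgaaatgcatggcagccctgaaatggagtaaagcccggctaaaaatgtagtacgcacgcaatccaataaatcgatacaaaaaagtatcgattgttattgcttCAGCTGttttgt
mRpL4 (chr2L:16329103-16329382, minus strand): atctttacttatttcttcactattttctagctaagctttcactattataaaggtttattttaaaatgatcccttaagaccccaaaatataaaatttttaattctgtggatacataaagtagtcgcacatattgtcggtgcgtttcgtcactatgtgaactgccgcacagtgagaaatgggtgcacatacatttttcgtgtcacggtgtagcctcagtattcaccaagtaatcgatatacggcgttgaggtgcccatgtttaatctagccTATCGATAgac
mRpL11 (chr3R:14511588-14511867, plus strand): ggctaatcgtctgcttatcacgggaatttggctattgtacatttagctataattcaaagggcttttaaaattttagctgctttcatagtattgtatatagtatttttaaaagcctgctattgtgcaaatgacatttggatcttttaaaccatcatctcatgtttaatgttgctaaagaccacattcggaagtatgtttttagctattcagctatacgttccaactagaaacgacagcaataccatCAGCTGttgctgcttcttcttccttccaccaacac
The next 2 carried reproducible peaks of medium signal, and were picked after their sequence was seen because an E-box lies close to both start sites of a divergent gene pair.
mRpL24 (chr2L:4945332-4945611, minus strand): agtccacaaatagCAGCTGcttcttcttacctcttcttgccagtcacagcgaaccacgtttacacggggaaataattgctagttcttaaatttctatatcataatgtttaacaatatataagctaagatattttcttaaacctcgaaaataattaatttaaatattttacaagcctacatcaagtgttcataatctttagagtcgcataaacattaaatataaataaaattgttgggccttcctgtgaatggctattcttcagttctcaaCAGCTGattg
mRpS2 (chr2L:4850390-4850669, minus strand): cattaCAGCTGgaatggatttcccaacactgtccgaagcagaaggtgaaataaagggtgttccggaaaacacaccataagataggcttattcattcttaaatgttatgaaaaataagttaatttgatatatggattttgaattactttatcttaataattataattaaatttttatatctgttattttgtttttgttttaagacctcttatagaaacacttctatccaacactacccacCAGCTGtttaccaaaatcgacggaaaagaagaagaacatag
The last 2 had no reproducible peak: mRpL17, with both motifs, and mRpL40, the only member with no peak in any list.
mRpL17 (chr3L:264529-264808, plus strand): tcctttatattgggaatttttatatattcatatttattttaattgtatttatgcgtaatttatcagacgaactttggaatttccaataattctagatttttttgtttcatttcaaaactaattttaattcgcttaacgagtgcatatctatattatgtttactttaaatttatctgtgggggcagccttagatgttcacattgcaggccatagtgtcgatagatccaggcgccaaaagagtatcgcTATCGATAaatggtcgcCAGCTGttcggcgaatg
mRpL40 (chr3R:11407668-11407947, plus strand): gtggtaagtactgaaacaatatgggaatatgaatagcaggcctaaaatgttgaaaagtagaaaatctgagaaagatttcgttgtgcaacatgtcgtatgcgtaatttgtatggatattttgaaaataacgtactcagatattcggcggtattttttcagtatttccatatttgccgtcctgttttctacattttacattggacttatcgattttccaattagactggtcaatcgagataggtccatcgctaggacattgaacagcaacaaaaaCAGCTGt
A match to a motif is a description of the letters and not evidence of a bound site.

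A gene was called bound when a summit of the reproducible list lay within 1 kb of any of its TSSs. Of the 73 genes, 27 (37.0%) were bound, against 21.1% of all protein-coding genes. The 27 genes had 27 distinct peaks. Among members with 1 TSS, 24 of 67 (35.8%) were bound, against 16.0% of all genes with 1 TSS. In the pooled list, which goes far below the reproducible threshold, 66 of 73 members (90.4%) had a summit within 1 kb, against 62.7% of all genes. The full replicate lists hold 30000 regions each, background included. They had a summit at 49 members in replicate 1, 69 in replicate 2 and 61 in replicate 3 (67.1%, 94.5% and 83.6%), against 52.9%, 61.8% and 62.9% of all genes.

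For the replicates to be compared at equal length, each list was ranked by the authors' signal and reduced to its top 3586 regions, the number of reproducible peaks. In these top lists 20 members were bound in replicate 1 (27.4%, against 19.7% of all genes). The number was 27 in replicate 2 (37.0%, against 20.6%) and 19 in replicate 3 (26.0%, against 20.4%). The mean over replicates was 30.1% ± 5.97 (SD, n = 3). Replicate 2 stood above the other two among the members, while the share of all genes hardly moved between replicates. Members exceeded all other genes by 7.75, 16.4 and 5.63 percentage points in replicates 1, 2 and 3, a mean of 9.94 ± 5.73 (SD, n = 3; exact two-sided sign-flip permutation p = 0.25, the smallest that 3 replicates allow). In all 3 top lists at once were 14 members (19.2%), against 12.8% of all genes. Read depth is unknown, and the replicates differed in how many regions reached a −log10 q of 2, with 2385, 5289 and 7213 in replicates 1, 2 and 3.

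**Figure D1:**
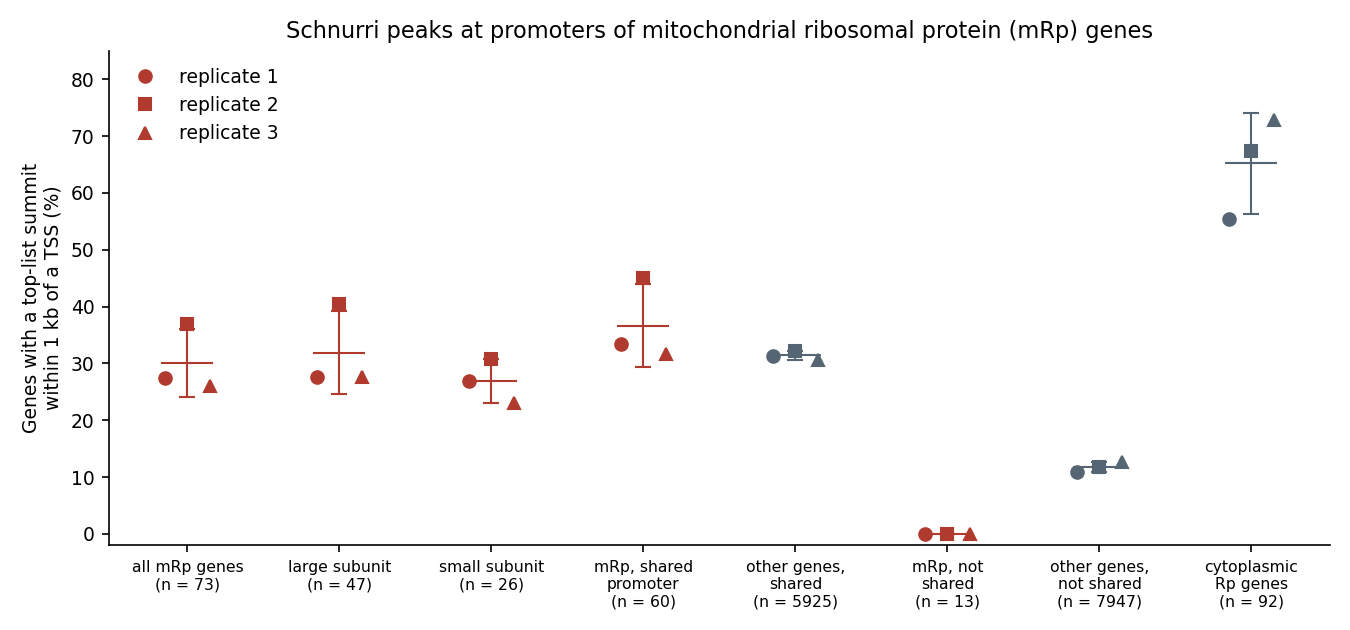
Percent of genes with a summit of a replicate's top list within 1 kb of a TSS (y axis), for mitochondrial ribosomal protein (mRp) genes in red and other genes in grey. Symbols are the 3 replicates, the long line is their mean and the bar 1 SD. The 13 members without a shared promoter sit at 0 in every replicate, and the cytoplasmic ribosomal protein genes lie between 55.4% and 72.8%.

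Bound and unbound members were divided by promoter arrangement. A promoter was called shared when another protein-coding gene had a TSS within 1 kb of a TSS of the member. This held for 60 of 73 members (82.2%), against 5985 of 13945 protein-coding genes, and at 57 of the 60 the nearest neighbour was divergent, transcribed away from the member. All 27 bound members were at shared promoters, 27 of 60 (45.0%), against 33.4% of all genes with a shared promoter. Of the 13 members without one, 0 were bound, which allows a share of up to 23.1%, against 12.0% of all genes without a shared promoter. That limit is above the share of other genes. With summits counted up to 2 kb from a TSS there were still 0 of 13, against 16.1% of the other genes without a shared promoter.

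The 13 members with a promoter of their own were mRpL9, mRpL10, mRpL12, mRpL14, mRpL19, mRpL40, mRpL45, mRpL49, mRpS5, mRpS9, mRpS33, mRpS34 and mRpS35. Their nearest foreign TSS lay from 1087 to 186799 bp away, with a median of 1981 bp. In the pooled list 8 of 13 (61.5%) had a peak, near the 52.2% of other genes without a shared promoter and the 62.7% of all genes. The strongest was at mRpL9, with a signal of 54.2 and rank 8029 in the pooled list and ranks 13424, 8038 and 17171 in replicates 1, 2 and 3. No region at any of the 13 ranked above 8029 in the pooled list, or above 11954, 8038 and 11316 in replicates 1, 2 and 3. The gene mRpL40 had no summit within 1 kb in the pooled list or in any replicate list.

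The shared promoters held a top-list summit at 33.3%, 45.0% and 31.7% of members in replicates 1, 2 and 3, and the unshared at 0 in each. The difference was 36.7 ± 7.26 percentage points (SD, n = 3; exact two-sided sign-flip permutation p = 0.25, the smallest possible). With only the 1793 strongest regions of each list it was 23.9 points. The same difference among all other genes was 19.6 ± 1.47 points at the full length. The gaps of members and of other genes were not compared further, since the unshared members number only 13 and stand at 0. Once only genes with a shared promoter were compared, a setting chosen after seeing the data, the excess of members over other genes was 1.94, 12.8 and 1.00 points in replicates 1, 2 and 3. Its mean of 5.23 ± 6.5 (SD, n = 3; exact permutation p = 0.25) was smaller than its spread. A comparison within genes with a divergent neighbour was also added after seeing the data. There the members differed from other genes by −0.98, 10.8 and −1.05 points in replicates 1, 2 and 3. The mean of 2.92 ± 6.8 points (SD, n = 3) was smaller than its spread, and the direction was not the same in every replicate.

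In the reproducible list, the share of bound members was highest where the neighbouring TSS was closest. With another TSS within 250 bp, 13 of 26 members were bound, against 35.2% of other genes at that spacing. At over 250 to 500 bp the share was 12 of 28 (42.9%), against 41.1%. At over 500 to 1000 bp it was 2 of 6 (33.3%), against 22.1%, and these 2 were mRpL41 and mRpL4. Beyond 1000 bp it was 0 of 13, against 12.0%. With sharing limited to 500 bp, 54 members were shared, mRpL41 and mRpL4 moved to the unshared side, and the shared minus unshared difference was 21.8 points. With 250 bp, 26 members were shared, 14 of the 27 bound members moved, and the difference was 10.9 points. At a shared promoter, a peak of the member and a peak of its neighbour cannot be told apart.

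**Figure D2:**
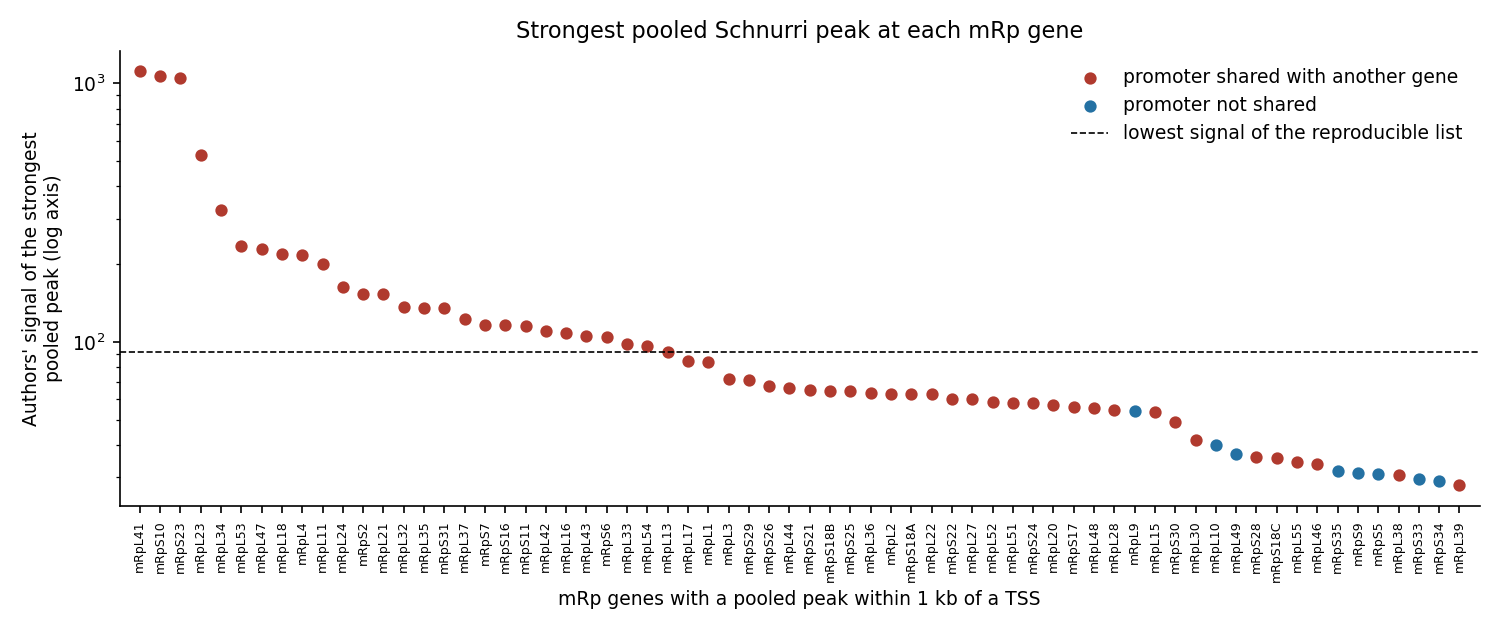
The authors' signal of the strongest pooled peak within 1 kb of a TSS (y axis, log scale) for the 66 members that have one, ordered by signal. Red points are members with a shared promoter and blue points those without, and the dashed line is the lowest signal in the reproducible list, 91.6. The blue points begin at mRpL9, below the line.

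Signal at the bound members was uneven, with 3 genes far above the rest. The median signal was 137, against 142 for the whole reproducible list, and 5 members were among the 500 strongest reproducible peaks. The strongest peak, at mRpL41, a large subunit protein with no bacterial counterpart, had a signal of 1113 and rank 17 of 3586. Its summit lay 155 bp upstream of the TSS, and it ranked 22, 16 and 27 in replicates 1, 2 and 3. Its divergent neighbour CG8079 starts 762 bp away. The peak at mRpS10, the homologue of bacterial S10, had a signal of 1069 and rank 20, and ranked 28, 19 and 30 in the replicates. Its summit lay 139 bp upstream, near the middle of the 257 bp that separate mRpS10 from Art3, which encodes an arginine methyltransferase. The peak at mRpS23, a small subunit protein specific to mitochondria, had a signal of 1053 and rank 23, with replicate ranks of 31, 21 and 20. Its summit lay 386 bp upstream, nearer to CenG1A, a GTPase-activating protein of Arf, than to mRpS23. At all 3 genes the rank stayed within 31 in every replicate.

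The next genes of the order had lower signal and a wider spread between replicates. The peak at mRpL23, whose bacterial homologue lies at the exit of the peptide tunnel, had a signal of 528 and rank 117, and ranked 98, 101 and 215 in replicates 1, 2 and 3. Its summit lay in a 5′ UTR, 59 bp downstream of the nearest of 3 TSSs, and CG9004 starts 24 bp away on the other strand. The peak at mRpL34 had a signal of 324 and rank 386 and lay 186 bp upstream, between mRpL34 and Dg, the gene of dystroglycan. Of the 10 strongest it differed most between replicates, with ranks of 141, 644 and 860, a 6.10-fold ratio. The peak at mRpL53 had a signal of 236 and ranks of 2081, 1013 and 367. This gene has the same annotated TSS as CG33155, and AGO1, the Argonaute of the microRNA pathway, also starts within 1 kb. Replicate 1 was thus the highest-ranking at mRpL34 and the lowest at mRpL53.

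The remaining 4 of the 10 strongest lay between ranks 787 and 996. The peak at mRpL47 had a signal of 229 and ranked 1269, 604 and 785 in replicates 1, 2 and 3. It lay 104 bp upstream, 5 bp from the common start of CG8176 and the histone demethylase gene Kdm3. The peak at mRpL18 had a signal of 219 and ranked 1468, 812 and 1019, and lay 153 bp upstream in the 5′ UTR of the neighbour Taz, which encodes the cardiolipin-remodelling enzyme tafazzin. The peak at mRpL4, whose bacterial homologue lines the peptide tunnel, had a signal of 217, ranks of 1079, 665 and 1258, and a summit 111 bp upstream. The peak at mRpL11, whose bacterial homologue forms part of the base of the stalk, had a signal of 201 and ranks of 1083, 667 and 1706. Its summit lay 254 bp upstream, beyond the start of HtrA2, a mitochondrial protease gene 126 bp away. Each of the 10 strongest was in every replicate's top list.

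**Figure D3:**
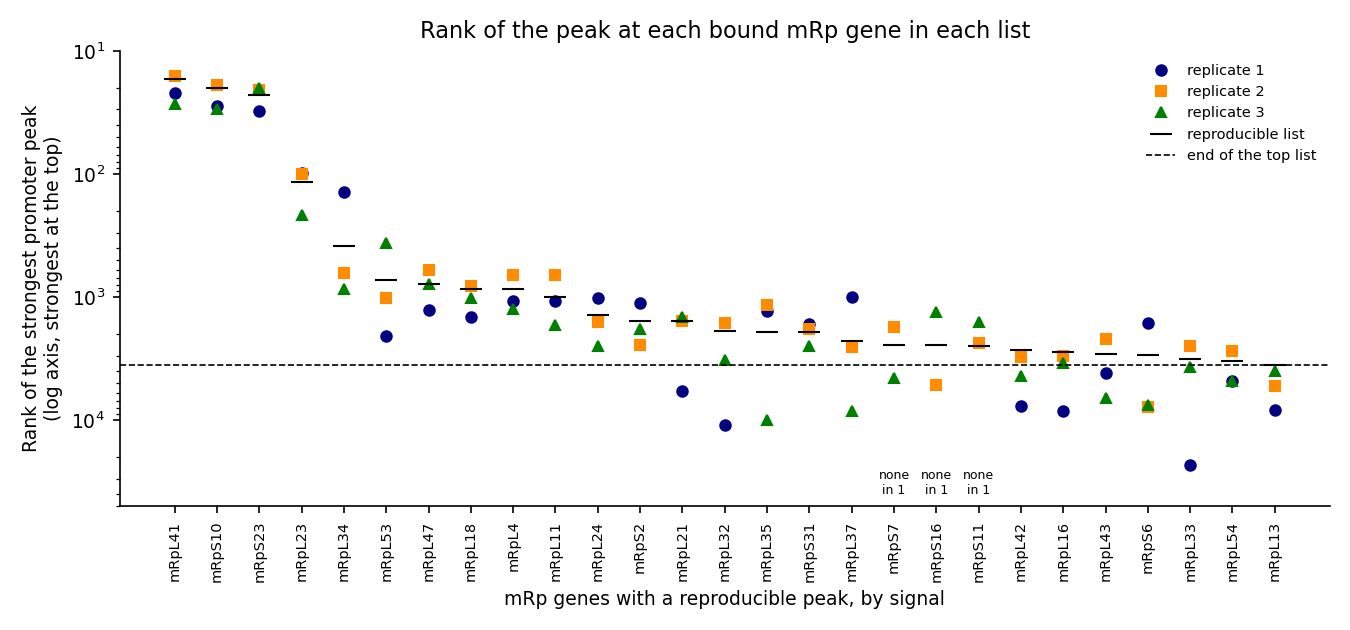
Rank of the strongest peak within 1 kb of a TSS (y axis, log scale, strongest at the top) at each of the 27 bound members, ordered by signal. Blue circles, orange squares and green triangles are replicates 1, 2 and 3, black dashes the reproducible list, and the dashed line the end of the top 3586; 3 genes have no region in replicate 1. The ranks stay together at the 3 strongest genes and spread on the right.

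The weaker bound members were less often in every top list. Of the 13 bound members within the first 1793 ranks of the reproducible list, 12 were in every top list, against 1 of the 14 further down. The latter rank between 1897 and 3581 in the pooled signal, close to the end of a top list at 3586, so the count depends on their distance from that limit. Over all 27, 13 were in 3 top lists, 6 in 2, 7 in 1 and 1 in none. The one in none was mRpL13, the weakest, with ranks of 8223, 5332 and 4023. Replicate 1 listed no region at mRpS7, mRpS16 and mRpS11, all small subunit genes beyond rank 1793. Of the 27, replicate 1 had 16 in its top list, replicate 2 had 24 and replicate 3 had 18. The pooled list held 3586 peaks at or above the lowest signal of the reproducible list, as many as that list holds. Since the reproducible peaks come from these same 3 replicates pooled, the counts are no separate evidence of agreement between them.

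The limit of the reproducible list was a signal of 91.6. Just inside it were mRpL13 at 91.7, mRpL54 at 96.3, mRpL33 at 98.0 and mRpS6 at 104. Just outside were mRpL17 at 84.9, mRpL1 at 83.4, mRpL3 at 72.0 and mRpS29 at 71.2. The strongest regions at mRpL17, beside Tudor-SN, ranked 2443, 3173 and 3395 in replicates 1, 2 and 3, inside all 3 top lists. Their summits lay at different positions, −305, −399 and −675 bp from the TSS. In the pooled list the strongest peak at mRpL17 had rank 3984, and its signal of 84.9 was below the limit of 91.6. By contrast mRpL33, beside the phospholipase C gene norpA, ranked 23027, 2489 and 3689 and was inside in 1 replicate only. Of the 46 unbound members, 39 had a pooled peak, with a median signal of 56.0, and 6 were in at least 1 top list.

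Summits at the bound members lay upstream of the start site and mostly between the 2 genes. They were upstream of the member's nearest TSS at 25 of 27, with a median position of −139 bp and a range of −633 to +59 bp. Of all 2336 promoter-proximal reproducible summits 75.2% were upstream, at a median distance of 114 bp from the nearest TSS. The 2 counts are not alike, since the members' positions are taken from the member's own TSS even where the neighbour's is nearer. At a divergent pair, a summit between the 2 genes is upstream of both. At 19 of 27 the summit lay between the member's TSS and that of its nearest neighbour. The nearest TSS of any gene was the member's own at 12, the neighbour's at 13 and one shared by both at 2 (mRpL53 and mRpL13). Every summit had the TSS of at least 1 other gene within 1 kb, and 4 had those of 2 or more. By annotation 20 summits were intergenic, 6 in a 5′ UTR, 1 elsewhere in a gene body and 0 in coding sequence. At the 24 members with a region in every replicate, the summits of the 3 replicates spanned a median of 31 bp. The span ran from 8 bp at mRpL4 to 267 bp at mRpL54, and at 22 members it was at most 100 bp. The reproducible peaks come from these same 3 replicates pooled, so this closeness is no separate evidence of a repeated position.

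**Figure D4:**
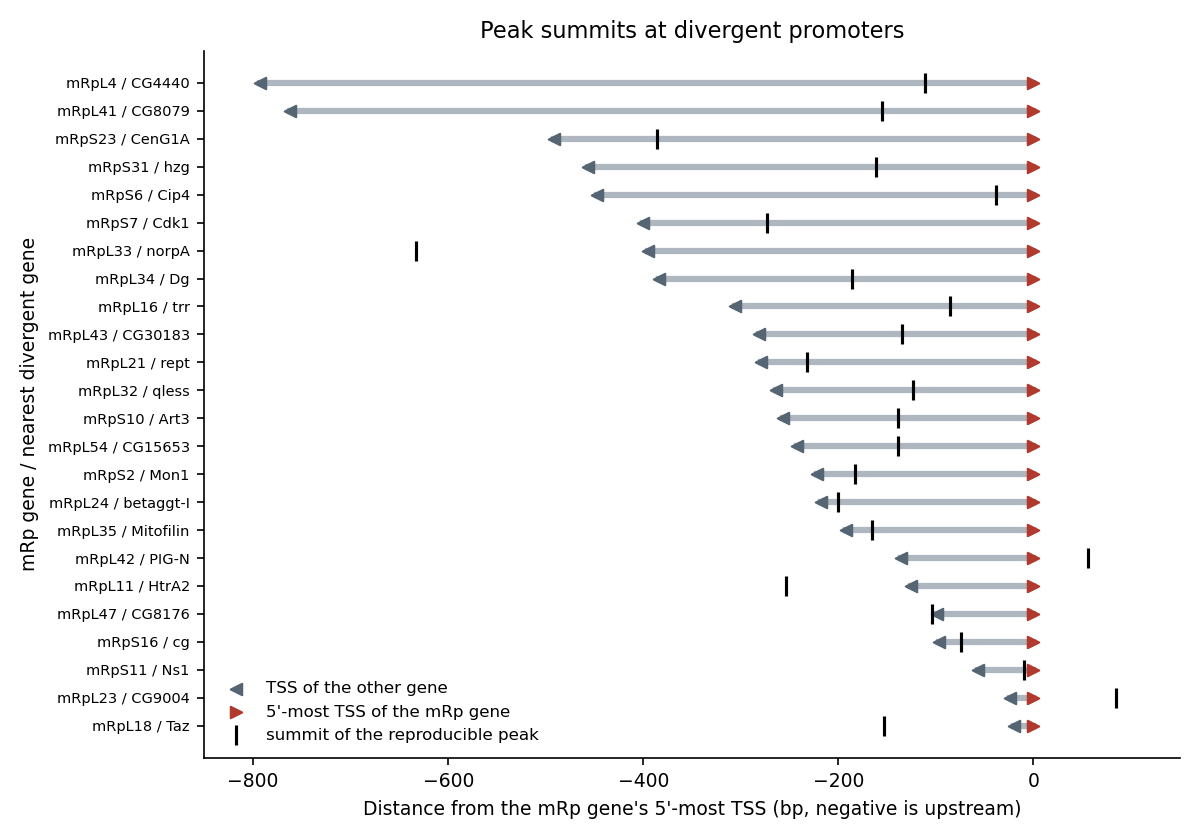
Position of the reproducible summit (black bar) at 24 of the 25 bound members whose nearest neighbour is divergent (mRpL37 is not drawn), in bp from the member's 5′-most TSS (red arrowhead), with the neighbour's TSS as a grey arrowhead. The grey line is the interval between both start sites. Most bars fall on the line, and those of mRpL33, mRpL11, mRpL47 and mRpL18 lie on the neighbour's side.

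The neighbours at bound promoters had varied roles. Taz and HtrA2 act in mitochondria, as do Mitofilin, which shapes cristae and starts 192 bp from mRpL35, and qless, which makes the side chain of coenzyme Q and starts 264 bp from mRpL32. These 4 were picked out after the list was seen, and unbound members have such neighbours too, as with the ATP synthase gene ATPsynD, 95 bp from mRpL55. Other neighbours at bound promoters were the cell cycle kinase gene Cdk1, 400 bp from mRpS7, the histone methyltransferase gene trr, 306 bp from mRpL16, and rept, 279 bp from mRpL21. The peaks at mRpL35, mRpL32, mRpS7, mRpL16 and mRpL21 had signals of 136, 137, 117, 108 and 153.

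In the reproducible and top lists, large subunit genes were bound somewhat more often than small subunit genes, by an amount that varied between replicates. In the reproducible list 19 of 47 large subunit genes (40.4%) and 8 of 26 small subunit genes (30.8%) were bound. Promoters were shared at 39 of 47 large and 21 of 26 small subunit genes, and among these 48.7% and 38.1% were bound. In the top lists of replicates 1, 2 and 3, 27.7%, 40.4% and 27.7% of large and 26.9%, 30.8% and 23.1% of small subunit genes were bound. The difference was 0.736, 9.66 and 4.58 points (mean 4.99 ± 4.47, SD, n = 3; exact two-sided sign-flip permutation p = 0.25). It was about the size of its spread and fell to 2.66 points without replicate 2. It was 2.86 points with a 500 bp window and 13.2 points with a 2 kb window. Within shared promoters it was 5.13 ± 5.32 points (SD, n = 3; exact permutation p = 0.5), a comparison added after seeing the data, with no difference in replicate 1. Further down the lists the gap was wider in replicate 1: among 10000 regions 53.2%, 74.5% and 66.0% of large and 34.6%, 57.7% and 61.5% of small subunit genes had a summit in replicates 1, 2 and 3. Of all genes 31.5%, 38.5% and 40.3% had a summit among 10000 regions. In the full lists 36, 44 and 41 of 47 large and 13, 25 and 20 of 26 small subunit genes had one. The order was reversed in the full list of replicate 2, with 93.6% of large and 96.2% of small subunit genes. It was also reversed in the pooled list, with 41 of 47 large (87.2%) and 25 of 26 small (96.2%). Of the 3 strongest genes, 1 encodes a large and 2 a small subunit protein.

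The E-box CAGCTG was the motif with the largest excess in member promoters among the 12 searched. Over 300 bases, from 250 before to 50 after the 5′-most TSS, 40 of 73 members (54.8%) held it, against 17.7% of all protein-coding promoters and 21.1% of those shared with another gene. Cytoplasmic ribosomal protein genes held it at 9 of 92 (9.78%). In members the motif sat at the start site: of its 45 occurrences, 39 (86.7%) lay from −100 to +50, with a median position of +3, counted from its first base with the TSS as +1. In other genes 65.5% of 2731 occurrences lay there, with a median of −52. It begins at −5 in mRpL11, at −28 in mRpL23, at +19 in mRpL47, at +14 in mRpL17 and at +24 in mRpL40, as in the sequences shown. In mRpL24 it begins at −237 and +21, and in mRpS2 at −245 and −11, in each case close to the starts of both genes of the pair. Counted from −100 to +50 only, 38 of 73 members (52.1%), 20 of the 60 nearest neighbours (33.3%) and 11.8% of other genes held it. At 15 of the 60 pairs both windows held it, and where the start sites are close a single motif can count for both.

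The E-box was found in members whether or not Schnurri was detected. It was present in 17 of 27 bound (63.0%) and 23 of 46 unbound members. Promoters shared with another gene held it in 32 of 60 (53.3%) and the others in 8 of 13 (61.5%), where 0 members were bound. Among shared promoters alone it was in 17 of 27 bound and 15 of 33 unbound members (45.5%), against 24.2% and 19.5% of all bound and unbound genes of this kind. It lay within 100 bp of the summit at 7 of 27 bound members (25.9%), against 11.2% of all reproducible summits. The latter share includes summits far from any TSS, whereas the 27 all lie within 1 kb of one. These 7 were mRpL11, mRpL18, mRpL24, mRpL42, mRpL54, mRpS2 and mRpS6, all among the 17 with the motif in the promoter. The match near the summit was not always the one at the member's start site. At mRpL11 it lay upstream of the 300 bases searched, and at mRpL24 and mRpS2 it was the match at −237 and −245. Of the strongest peaks, those at mRpL41 and mRpL23, of ranks 17 and 117, have a match in the promoter. Those at mRpS10 and mRpS23, of ranks 20 and 23, have none. By subunit, 25 of 47 large (53.2%) and 13 of 26 small subunit genes held it from −100 to +50.

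The DRE, TATCGATA, the site of the factor DREF, was in 15 of 73 member promoters (20.5%), against 9.36% of all promoters and 14.1% of shared ones. It was in 4 of 27 bound members, mRpL4, mRpL16, mRpL32 and mRpS23, and in 11 of 46 unbound ones, and within 100 bp of 1 of the 27 summits. In mRpS23 it occurs at −209 and −9, and in mRpL17 at −4. Motif 7 of the Ohler set of core promoter elements was in 17 members (23.3%), against 9.29% of all promoters and 13.9% of shared ones. Motif 1 of that set, bound by M1BP, was in 6 (8.22%), against 4.50%. The GAGA repeat, GAGAG on either strand, was less common in members, at 12 of 73 (16.4%), against 29.7% of all and 24.4% of shared promoters. The motif TATAAA was in 46.6% of members and 45.8% of all promoters. A GC-rich Mad site, GCCGCCG, was in 1 member, mRpL23 (1.37%), against 3.60% of all promoters, and the Schnurri silencer element, the composite Mad and Medea site, was in 0 of 73 (a share of up to 4.11%) and in 0.208% of all promoters. Member promoters were rich in A and T, with a median GC content of 34.7%, against 38.0% for all genes, and 36.0% and 33.7% in bound and unbound members.

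**Figure D5:**
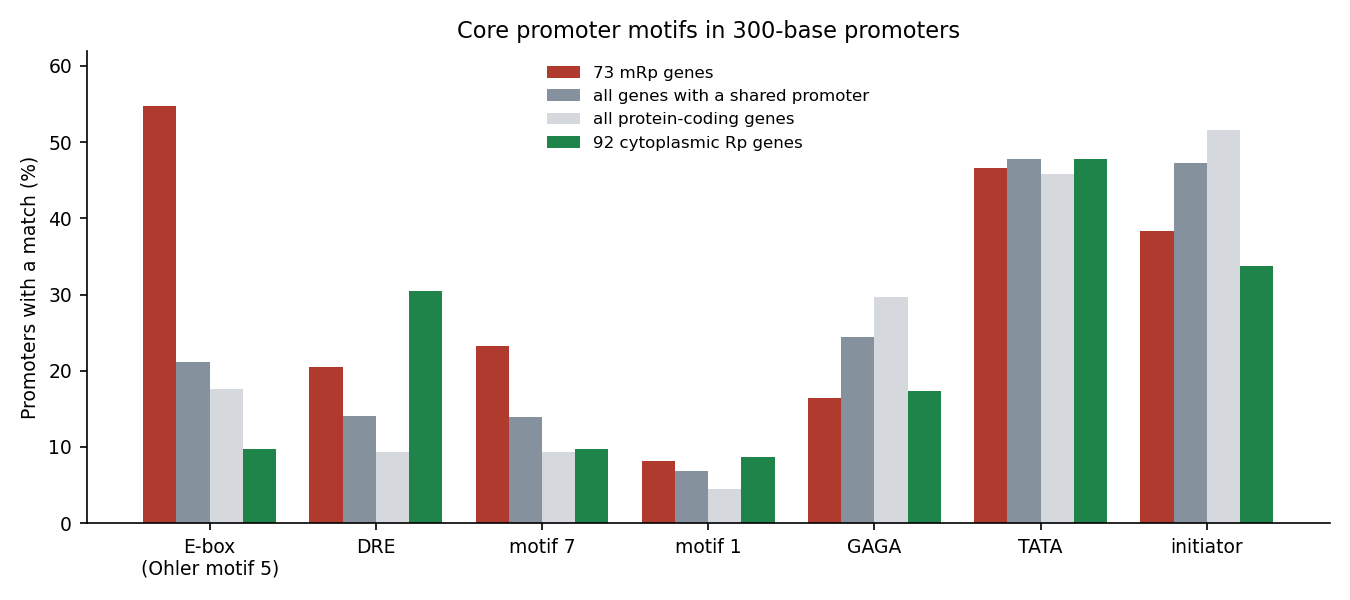
Percent of 300-base promoters with a match on either strand (y axis) for 7 core promoter motifs, in the 73 members, all genes with a shared promoter, all protein-coding genes and the 92 cytoplasmic ribosomal protein genes. The E-box stands at 54.8% in members against 17.7% of all genes.

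The cytoplasmic ribosomal protein genes, named RpL or RpS, were bound far more often than the mitochondrial ones. In the reproducible list 64 of 92 (69.6%) were bound, 45 of 58 (77.6%) with a shared promoter and 19 of 34 (55.9%) without. In the top lists 55.4%, 67.4% and 72.8% were bound in replicates 1, 2 and 3. The mitochondrial genes were lower by 28.0, 30.4 and 46.8 points, a mean difference of −35.1 ± 10.2 (SD, n = 3; exact two-sided sign-flip permutation p = 0.25). Within shared promoters alone, a comparison added after seeing the data, the difference was −37.5 ± 13.3 points. By pooled signal RpS27, RpL7 and RpL23A, the highest of the cytoplasmic genes, stood at 777, 758 and 606, below the 1053 or more at mRpL41, mRpS10 and mRpS23. This order did not hold in every replicate: RpL7 ranked 193, 59 and 19 and RpS27 153, 44 and 28 in replicates 1, 2 and 3, and in replicate 3 RpL7 was ahead of mRpS23 at 20, mRpL41 at 27 and mRpS10 at 30.

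Other genes of mitochondrial gene expression and respiration were bound at shares from 13.3% to 31.2% in 6 lists of 10 to 40 genes, against 21.1% of all genes and 37.0% of members. Of the mitochondrial aminoacyl-tRNA synthetase genes 2 of 15 (13.3%) were bound, led by LeuRS-m with a signal of 245 and ArgRS-m with 144. Of the mitochondrial translation factor genes 2 of 11 (18.2%) were bound, the elongation factor gene mEFTu1 at 138 and mTerf5 at 104. The latter belongs to the MTERF family, known for regulating mitochondrial transcription rather than for a role as a translation factor. Of the genes for maintenance and transcription of mitochondrial DNA 2 of 10 (20.0%) were bound, the single-stranded DNA-binding protein gene mtSSB at 249 and the RNA polymerase gene PolrMT at 111. The listed names not matched in the annotation numbered 2, 3 and 2 in these lists. Complex I genes (symbols starting ND-) were bound at 11 of 40 (27.5%), led by ND-MWFE at 485, ND-ASHI at 222 and ND-51 at 215. Complex IV genes (COX) were bound at 5 of 16 (31.2%), led by COX5A at 221, COX6B at 181 and COX8 at 144. ATP synthase genes were bound at 3 of 15 (20.0%), ATPsynE at 126, ATPsynbeta at 107 and ATPsynF at 101. None of these leaders reached the signal of mRpL23.

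The members were spread over the genome, and bound members were found on all 5 arms that carry any. The arms 2L, 2R, 3L, 3R and X held 12, 12, 17, 21 and 11 members. Of these 6, 8, 4, 7 and 2 were bound. Of all genes on the same arms 20.1%, 20.1%, 22.2%, 22.7% and 20.4% were bound, and 14 of the 27 bound members were on the second chromosome, which holds 24 of the 73.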

How the data were processed

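ChIP-seq peak lists of 3 replicates of 1 group were analysed. The signal and −log10 q value of each peak are those of the authors' peak caller, as deposited; of the caller, its control handling and the threshold of the irreproducible discovery rate (IDR) procedure, the name or value is not given in the sources used here. Replicates were pooled by the authors in the pooled and reproducible lists. Signal was used to rank peaks within a list, and its values were compared only within the pooled and reproducible lists. Ranks of a replicate are over its 30000 regions. Lists on dm3 were not used. Peaks on dm6 (Release 6), 1-based, were analysed in Python 3.11.15 (numpy 2.4.6, pandas 2.3.3), with figures from matplotlib 3.10.9. Genes and TSSs came from Ensembl release 115 (BDGP 6.54; 19607 distinct TSSs), and sequence from the Release 6 assembly. When several peaks lay within 1 kb of a TSS, the one of highest signal was used.

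The members, lists and motifs were chosen with earlier results of these data known. Genes are not replicates, so tests ran over the 3 replicates as exact two-sided sign-flip permutation tests. Of these, 6 are given with p, and the 2 of them within shared promoters were added after seeing the data. The comparisons within divergent neighbours, and with cytoplasmic genes at shared promoters, were also added then and are given without p. No adjustment was made, since no p can fall below 0.25. The limit of a share at a count of 0 is 3 counts of the total. Named genes were the 10 strongest members, the 4 on either side of the threshold, members with no peak, neighbours of named members and up to 3 leaders of each other mitochondrial list; other names were chosen after their values were seen. Gene calling, sharing of promoters and the sign-flip test were tested on planted summits. Read depth is unknown, so no interval on signal is given. The replicates are labelled as biological replicates. The neighbour of 1 member is not reported here.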

Additional observations from a re-analysis of the deposited data

How the results depend on the processing

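The alternatives were other TSS windows, distances to a peak's edge, list lengths, a minimum −log10 q, gene 5′ ends alone, other definitions of a shared promoter and leaving out each replicate. Of 54 settings, 0 reversed a result. Of the 38 for the 4 differences between gene groups, which were judged by direction alone, 8 changed the size by over 1.5 times. Of the other settings, 6 moved a count or share. The full and pooled lists, where the order of the subunits was reversed in places, were not among the 54. Nor was the comparison within divergent neighbours, whose direction differed between replicates. The 27 bound of 73 members became 13 of 73 with only the 1793 strongest peaks, against 11.9% of all genes. With regions shared by the top lists of the 2 remaining replicates, they became 15 to 18 of 73 with 1 replicate left out. The counts were 18 of 73 without replicate 1, 15 of 73 without replicate 2 and 17 of 73 without replicate 3. Of all genes 15.2%, 13.3% and 15.7% were bound in these settings. The mean share in top lists, 30.1%, became 39.3% with a 2 kb window, 19.6% with the 1793 strongest peaks and 39.3% with a −log10 q of at least 2. In these 3 settings all genes stood at 24.5%, 11.9% and 25.1%. The cause was not tested. No paired analysis was possible because all samples belong to 1 group; the differences tested were taken between gene groups within each replicate. With 3 replicates no exact permutation test can fall below p = 0.25, and in the absence of read counts the precision of each peak is unknown.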

Other observations

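Of the genes known to encode mitochondrial ribosomal proteins, 2 carry older names and fall outside the choice by symbol. The gene tko, which encodes the S12 protein and is known for bang-sensitive seizures in mutants, had no reproducible peak. Its pooled peak ranked 8129 with a signal of 53.8, 21 bp downstream of the TSS, and it ranked 9658 and 4891 in replicates 2 and 3 with no region in replicate 1. The gene bonsai, which encodes the S15 protein, had a pooled peak of rank 28454 and ranks of 25871 and 25255 in replicates 2 and 3.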
